A study of Mus musculus with 20 samples.

Results

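The interferon receptor chains and the JAK and SOCS genes that act directly below them were followed in microglial RNA of mThy1-α-synuclein mice and their wild-type controls. The genes were taken by symbol from the deposited expression table: the receptor chains Ifngr1, Ifngr2, Ifnar1 and Ifnar2, the kinases Jak1, Jak2 and Tyk2, and the feedback inhibitors Socs1, Socs3 and Cish. They are 10 of the 24062 genes in the table, and they were picked by name, with earlier results of these data known. RNA sequencing was done on microglia of 20 male mice on the B6D2F1/J background, which is the strain given in the labels. The mThy1-α-synuclein mice, also called transgenic mice here, carry human wild-type α-synuclein under the murine Thy-1 promoter, which drives it in neurons, on the X chromosome. The 7-month groups held 6 hemizygous mThy1-α-synuclein and 4 wild-type mice, the 10-month groups 5 of each genotype, all without treatment, and each sample came from 1 mouse's whole brain, unpooled. The microglia were pulled down with magnetic beads that the labels call IBA1 beads and the methods call CD11b beads. Both antigens are also found on other myeloid cells.

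Values are depth-normalized counts, called normalized counts here: reads per gene that the authors divided by a size factor for each mouse. Between 33404096 and 77806399 reads per mouse fell on genes. The ages were normalized separately, so levels were compared between genotypes within an age, and a level at 7 months cannot be told apart from processing when it is set against a level at 10 months. As the check of the labels, Thy1, whose regulatory sequence drives the transgene, averaged 919 ± 337 normalized counts in transgenic mice against 39.2 ± 14.4 in wild-type mice at 7 months (SD, n = 6 and 4), and 1423 ± 263 against 17.4 ± 8.80 at 10 months (SD, n = 5 and 5), with no overlap at either age. The 10 microglia markers, among them Tmem119, P2ry12 and Cx3cr1, together held a median of 3.64% to 4.18% of all normalized counts in the 4 groups, and none of them was at 0 throughout a group.

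Type I interferons bind a receptor built of IFNAR1 and IFNAR2, and interferon gamma binds a receptor built of IFNGR1 and IFNGR2. Binding brings together Janus kinases that sit on the receptor tails, TYK2 and JAK1 on the type I receptor and JAK1 and JAK2 on the interferon gamma receptor, and the kinases phosphorylate STAT transcription factors. SOCS1, SOCS3 and CIS (the product of Cish) are made in response to STAT activity and shut the receptors and kinases down again. In the brain, microglia are a main cell type that senses interferons.

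STAT dimers bind the GAS element, and a STAT complex that holds IRF9 binds the ISRE. The promoter windows of the 3 receptor genes called in a comparison and of the 3 inhibitors are shown because the letters of these elements occur in 5 of them. Each window runs from 250 bases before to 50 bases after the RefSeq gene start on GRCm38.p6 (mm10), written 5′ to 3′ along the gene. Capitals mark TTCNNNGAA (GAS) and the ISRE core (GAAA, then 2 bases of any kind, then GAAA), searched on both strands.
Ifngr1 (chr10:19591699-19591998, plus strand): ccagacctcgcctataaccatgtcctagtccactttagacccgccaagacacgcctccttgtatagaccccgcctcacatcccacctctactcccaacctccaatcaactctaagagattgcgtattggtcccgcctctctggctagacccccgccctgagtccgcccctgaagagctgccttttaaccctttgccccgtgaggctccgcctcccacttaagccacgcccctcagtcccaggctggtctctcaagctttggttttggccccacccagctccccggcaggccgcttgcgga
Ifnar1 (chr16:91484965-91485264, plus strand): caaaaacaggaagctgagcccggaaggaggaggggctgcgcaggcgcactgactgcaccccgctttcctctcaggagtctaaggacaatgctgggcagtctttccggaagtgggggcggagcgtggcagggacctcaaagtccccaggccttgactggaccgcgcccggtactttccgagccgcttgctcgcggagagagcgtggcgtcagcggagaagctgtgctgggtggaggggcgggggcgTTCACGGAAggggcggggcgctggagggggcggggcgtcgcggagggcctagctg
Ifnar2 (chr16:91372533-91372832, plus strand): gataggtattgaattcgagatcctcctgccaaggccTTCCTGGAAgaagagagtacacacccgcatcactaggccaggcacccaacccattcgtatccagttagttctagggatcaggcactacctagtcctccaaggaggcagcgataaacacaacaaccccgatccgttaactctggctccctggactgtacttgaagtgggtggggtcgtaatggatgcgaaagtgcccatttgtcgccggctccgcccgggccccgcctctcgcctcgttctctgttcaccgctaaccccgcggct
Socs1 (chr16:10785487-10785786, minus strand): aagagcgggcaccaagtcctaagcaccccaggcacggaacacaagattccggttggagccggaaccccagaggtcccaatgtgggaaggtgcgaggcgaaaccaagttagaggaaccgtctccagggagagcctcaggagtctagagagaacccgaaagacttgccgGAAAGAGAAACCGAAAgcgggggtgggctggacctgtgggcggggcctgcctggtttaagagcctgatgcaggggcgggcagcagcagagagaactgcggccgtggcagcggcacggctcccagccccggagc
Socs3 (chr11:117969317-117969616, minus strand): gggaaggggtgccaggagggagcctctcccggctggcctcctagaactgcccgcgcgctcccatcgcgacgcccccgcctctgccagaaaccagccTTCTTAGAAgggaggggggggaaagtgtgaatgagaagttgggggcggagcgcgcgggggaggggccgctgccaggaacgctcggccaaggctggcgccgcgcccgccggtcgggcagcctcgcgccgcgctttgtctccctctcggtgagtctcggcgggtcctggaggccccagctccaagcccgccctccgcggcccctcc
Cish (chr9:107296409-107296708, plus strand): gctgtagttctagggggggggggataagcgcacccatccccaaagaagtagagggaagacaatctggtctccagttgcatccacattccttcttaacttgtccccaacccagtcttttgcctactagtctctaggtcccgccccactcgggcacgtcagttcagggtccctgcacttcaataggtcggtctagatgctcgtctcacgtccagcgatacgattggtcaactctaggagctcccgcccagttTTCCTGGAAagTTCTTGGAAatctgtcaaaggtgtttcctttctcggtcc
All 10 genes had a window in the RefSeq table. The windows of Socs3 and Cish lie inside the GENCODE spans given for these genes below. Their match positions therefore hold for the RefSeq start and not for the GENCODE start. A GAS match was found once in Ifnar1 (first base at -5 from the start), once in Ifnar2 (-214), once in Socs3 (-154), and 2 times in Cish (1 and 12). Socs1 held 2 overlapping ISRE core matches (-83 and -77). Ifngr1, shown without capitals, and Ifngr2, Jak1, Jak2 and Tyk2 held neither. Among all 32851 promoter windows of the table, 8.30% held a GAS match and 3.44% an ISRE core match. The matches describe letters and are not evidence of binding.

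At 7 months, Ifngr1 and Ifnar2 were higher in mThy1-α-synuclein microglia, by 1.34-fold and 1.52-fold. The other 8 genes did not pass the test. At 10 months none of the 10 genes passed. The genotype effect on Ifngr1, Ifnar1 and Ifnar2 was lower at 10 than at 7 months. Genes were compared with limma's moderated test on log2(normalized count + 1), and a gene was called at a Benjamini-Hochberg adjusted p under 0.05 over all genes tested. All 10 genes were tested in each comparison. The 2 genes called at 7 months, both higher, stand beside 4.93% of the 13887 genes tested (2.23% called higher and 2.70% lower). The 0 called at 10 months stand beside 7.67% of 13627 genes (3.88% called higher and 3.79% lower). At 10 months 2 of the 10 genes, Ifngr2 and Ifnar1, had an unadjusted p under 0.05 with limma, where 23.5% of all genes did, and edgeR and DESeq2 on the recovered reads also called 0 of the 10, where they called 7.93% and 12.4% of all genes. In the difference between the ages, 3 were called, all lower, where 6.36% of 14457 genes were called (2.62% lower and 3.74% higher). At an unadjusted p under 0.05, 3 of the 10 genes passed at 7 months, where 21.3% of all genes did.

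**Figure D1:**
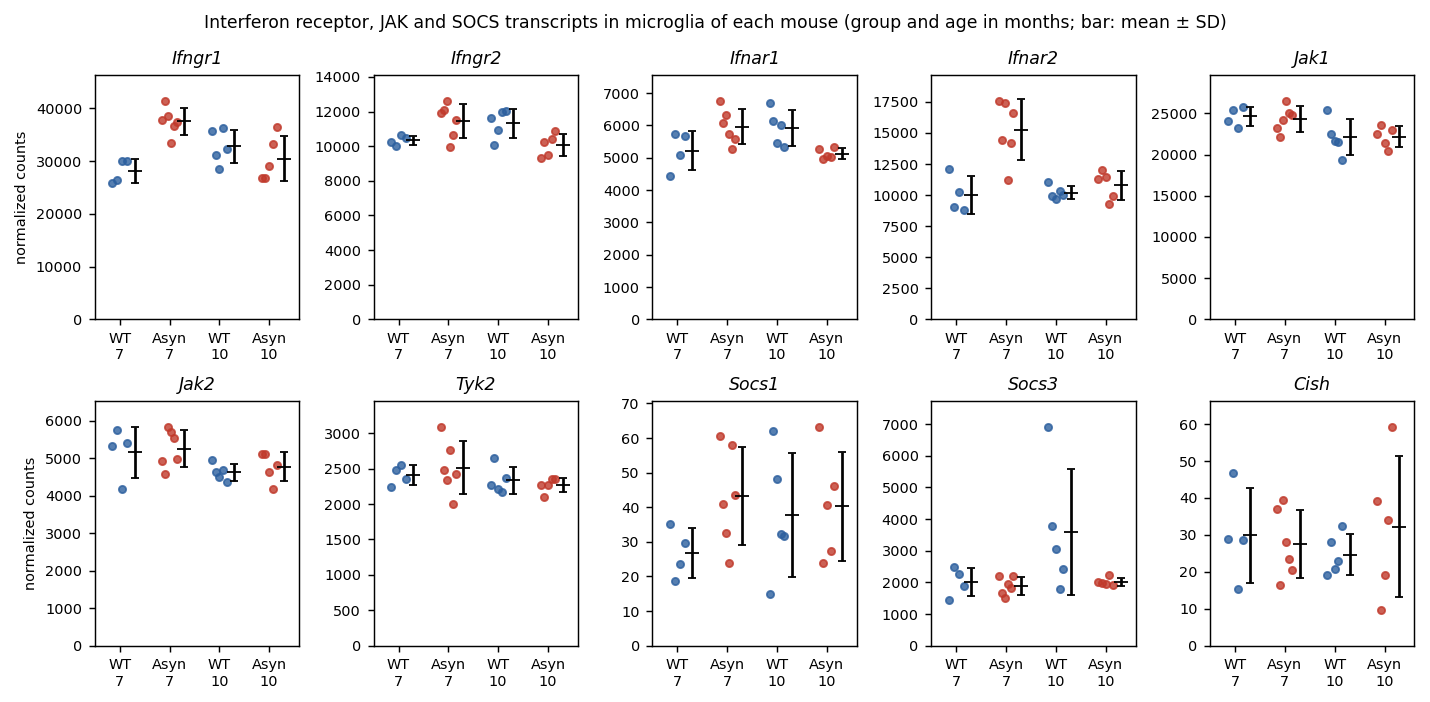
Normalized counts (vertical axes, from 0) of the 10 genes in each mouse, by genotype and age in months (WT, wild-type, blue; Asyn, mThy1-α-synuclein, red). Points are mice and black bars are the mean ± SD of 4 to 6 mice. Ifngr1 at 7 months is the panel in which the mThy1-α-synuclein mice, from 33396 upward, all lie above the wild-type mice, which end at 30048.

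Ifngr1 encodes the chain that binds interferon gamma. It lies on mm10 chromosome 10 from 19591949 to 19610229 on the plus strand. At 7 months the 4 wild-type mice had 25810.0, 26433, 30048 and 29972 normalized counts, and the mThy1-α-synuclein mice had a lowest value of 33396, a median of 37585.5 and a highest of 41436. The groups did not overlap, as was the case for 7.53% of all tested genes (3.55% higher). Means were 37525 ± 2625 (SD, n = 6) against 28066 ± 2260 (SD, n = 4), a log2 fold change of 0.42 (standard error 0.076, 95% confidence interval 0.26 to 0.58, limma adjusted p = 0.0048).

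At 10 months the ranges of Ifngr1 overlapped widely. The mThy1-α-synuclein mice had 26744, 26887, 29094, 33237 and 36376 normalized counts. The wild-type mice had 35632, 31247, 28555, 36255 and 32255. Replicates 1 to 3 of the mThy1-α-synuclein mice lay low and replicate 5 lay above every wild-type mouse. The log2 fold change was -0.11 (standard error 0.095, 95% confidence interval -0.31 to 0.091, limma adjusted p = 0.52). Between the ages the genotype effect differed by -0.53 on the log2 scale (10 minus 7 months, standard error 0.12, limma adjusted p = 0.013). This call and the one at 7 months held without any single mouse, with adjusted p up to 0.036 and 0.032.

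Ifngr2 encodes the chain that pairs with IFNGR1 and carries JAK2. It lies on chromosome 16 from 91547072 to 91565623 on the plus strand. The wild-type mice at 7 months had 10254, 10031, 10660.5 and 10448 normalized counts, and the mThy1-α-synuclein mice ranged from 9973 over a median of 11718 to 12626. The narrow wild-type group lay inside the mThy1-α-synuclein range. This gave a log2 fold change of 0.14 (standard error 0.074, limma adjusted p = 0.27).

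At 10 months Ifngr2 had 9338, 10246, 9499.6, 10419.9 and 10865 normalized counts in the transgenic mice and 11607, 10068, 10909, 11985 and 12018 in wild-type mice. Wild-type replicate 2 was the wild-type mouse that lay within the mThy1-α-synuclein range. The fitted log2 fold change was -0.17 (standard error 0.069, limma adjusted p = 0.16). The difference between the ages was -0.31 (standard error 0.099, adjusted p = 0.060), which missed the cutoff with limma and passed it with DESeq2 (adjusted p = 0.032, where DESeq2 called 9.20% of all genes). It also passed with limma without mThy1-α-synuclein replicate 4 at 7 months (adjusted p = 0.026), without mThy1-α-synuclein replicate 5 at 10 months (0.0495) and without wild-type replicate 2 at 10 months (0.037).

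Ifnar1 encodes the chain of the type I receptor that carries TYK2. It lies on chromosome 16 from 91485238 to 91507441 on the plus strand. Its 7-month wild-type values were 4432, 5722, 5073 and 5675 normalized counts, and the mThy1-α-synuclein mice had a lowest value of 5282, a median of 5909 and a highest of 6765. Wild-type replicates 2 and 4 lay within the mThy1-α-synuclein range. As a log2 fold change this was 0.19 (standard error 0.089, limma unadjusted p = 0.047, adjusted p = 0.23).

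At 10 months the mThy1-α-synuclein mice lay close together for Ifnar1, at 5267, 4957.5, 5059, 5039 and 5341 normalized counts. The wild-type mice had 6709, 6134, 5455, 6009 and 5324, so the groups touched at wild-type replicate 5. On the log2 scale the fold change was -0.20 (standard error 0.070, limma unadjusted p = 0.011, adjusted p = 0.092). The difference between the ages was called at -0.40 (standard error 0.11, limma adjusted p = 0.037). This call was lost in 11 of the 20 fits that each left out a mouse. At 7 months those were mThy1-α-synuclein replicates 1, 2 and 3 and wild-type replicates 1 and 3, and at 10 months mThy1-α-synuclein replicates 2, 3 and 4 and wild-type replicates 1, 2 and 4. The adjusted p reached 0.099 without wild-type replicate 1 at 7 months, where the difference was -0.32.

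Ifnar2 encodes the chain that binds type I interferons most tightly and carries JAK1. It lies on chromosome 16 from 91372783 to 91405589 on the plus strand. At 7 months the wild-type mice had 12124, 9013, 10213 and 8779 normalized counts, and the mThy1-α-synuclein mice ranged from 11241 over a median of 15519 to 17587. The overlap came from mThy1-α-synuclein replicate 4, which lay below wild-type replicate 1. Means were 15254 ± 2452 (SD, n = 6) against 10032 ± 1529 (SD, n = 4). The log2 fold change was 0.60 (standard error 0.13, 95% confidence interval 0.32 to 0.88, limma adjusted p = 0.017). It missed the cutoff without wild-type replicate 2 (adjusted p = 0.059), replicate 3 (0.0544) or replicate 4 (0.0541).

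At 10 months Ifnar2 had 11290.2, 11989, 11455, 9267 and 9919 normalized counts in mThy1-α-synuclein mice. Wild-type mice had 11078, 9888, 9688, 10324 and 10019.6. The wild-type values lay inside the mThy1-α-synuclein range. This gave a log2 fold change of 0.075 (standard error 0.077, 95% confidence interval -0.088 to 0.24, limma adjusted p = 0.60). The difference between the ages was -0.52 (standard error 0.15, limma adjusted p = 0.041). This call was kept in 5 of the 20 fits that each left out a mouse: without mThy1-α-synuclein replicate 4 or 5 or wild-type replicate 1 at 7 months, and without mThy1-α-synuclein replicate 2 or wild-type replicate 3 at 10 months. In the other 15 the adjusted p rose as far as 0.0905, without wild-type replicate 4 at 7 months, where the difference was -0.46. GENCODE also annotates a read-through gene, Gm21970, across Ifnar2 and its neighbour Il10rb, and how reads shared by overlapping genes were counted is not stated, so the level of Ifnar2 is uncertain to that extent.

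In bulk RNA of this kind, a lower share of cells of a type and less RNA of a gene per cell cannot be told apart. At 7 months the summed level of the 9 neuron markers ranged from 310 to 592 normalized counts in transgenic mice and from 657 to 1342 in wild-type mice, and 5 of the 9 were called lower. The sum of the 6 oligodendrocyte markers ranged from 7845 to 10167 against 12702 to 18093 (3 called lower), and that of the 6 endothelial markers from 2624 to 4542 against 5014 to 5857 (2 called lower). Of the 8 astrocyte markers, 3 were called lower and 1 higher at 7 months. The astrocyte sum was not lower, at 9697 to 12457 normalized counts in transgenic mice against 9212 to 11889 in wild-type mice. The neuron, oligodendrocyte and endothelial sums were lower in the mice in which Ifngr1 and Ifnar2 were higher. The neutrophil sum ranged from 30660 to 282561 in transgenic mice and from 54484 to 194711 in wild-type mice (0 markers called). It was 30660 to 51950 in transgenic replicates 1 to 3 and 163683 to 282561 in replicates 4 to 6. Monocyte sums ranged from 8013 to 33384 against 9447 to 28352, and lymphocyte sums from 114 to 497 against 349 to 778 (0 called). The part of these cells in the result was not tested. Of the 10 microglia markers at 7 months, limma and edgeR called 0 and DESeq2 called 1, and 2 had an unadjusted p under 0.05 with limma.

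The 4 receptor chains had a median log2 fold change of 0.31 at 7 months and -0.14 at 10 months, and a median difference between the ages of -0.46. Over all tested genes the corresponding medians were 0.00093, -0.0026 and 0.00080. All 4 chains had a positive value at 7 months, and 3 of 4 a negative value at 10 months, Ifnar2 being the exception.

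**Figure D2:**
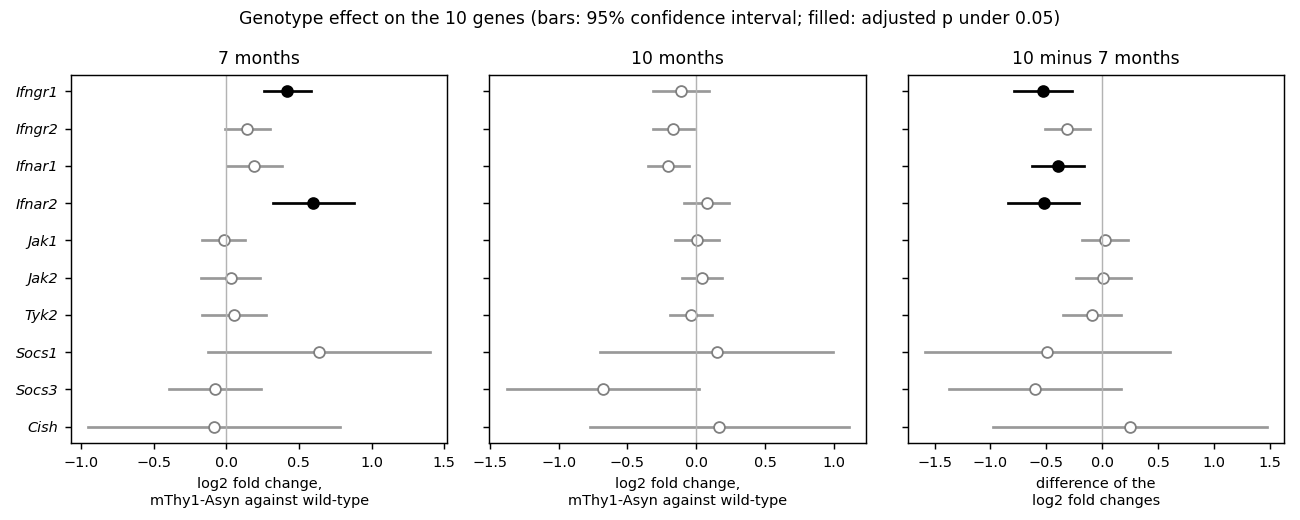
Log2 fold changes of mThy1-α-synuclein against wild-type mice at 7 and 10 months and the difference between them (horizontal axes) for the 10 genes (rows). Bars are 95% confidence intervals and filled points have an adjusted p under 0.05. The receptor chains lie between 0.14 and 0.60 at 7 months, and the kinases lie within 0.053 of 0 at either age.

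The balance between the chains of each receptor was compared as the log2 ratio of their normalized counts in a mouse. These ratios were chosen after the single values had been seen. At 7 months log2(Ifngr1/Ifngr2) was 1.71 ± 0.066 in transgenic mice and 1.44 ± 0.087 in wild-type mice (SD, n = 6 and 4), a difference of 0.28 with no overlap (two-sided exact permutation test, p = 0.0095, adjusted over 6 tests p = 0.057). At 10 months it differed by 0.056 (exact permutation p = 0.49, adjusted p = 0.59). For log2(Ifnar2/Ifnar1) the difference was 0.41 at 7 months (exact permutation p = 0.095, adjusted p = 0.14) and 0.28 at 10 months (exact permutation p = 0.024, adjusted p = 0.071). The differences between the ages were -0.22 for the interferon gamma receptor and -0.13 for the type I receptor (permutation within each age, p = 0.089 and 0.62, adjusted p = 0.14 and 0.62). None of the 6 passed after adjustment. The smallest p that this two-sided test can give is 0.0095 at 7 months, the value reached by log2(Ifngr1/Ifngr2), and 0.00794 at 10 months.

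Ifnar2, Il10rb, Ifnar1 and Ifngr2 follow each other on chromosome 16 within 192.8 kb. Il10rb, on the plus strand between Ifnar2 and Ifnar1 from 91406164 to 91425834, encodes a chain shared by the receptors of IL-10 and of interferon lambda. At 7 months it averaged 9159 ± 1256 normalized counts in transgenic mice against 7728 ± 293 in wild-type mice (SD, n = 6 and 4; log2 fold change 0.23, limma adjusted p = 0.16). At 10 months it was lower in transgenic mice, which had 7693, 8620.2, 7776, 8728 and 8814 normalized counts. The wild-type mice of that age had 12165, 9198, 9014, 10569.5 and 10344. The groups did not overlap, as was the case for 7.27% of all tested genes (3.49% lower; log2 fold change -0.295, standard error 0.083, limma adjusted p = 0.044). The difference between the ages was -0.53 (standard error 0.13, adjusted p = 0.016). The call at 10 months was lost in 8 of the 10 fits without a mouse (all but those without mThy1-α-synuclein replicate 4 or wild-type replicate 3), with an adjusted p of up to 0.11 without mThy1-α-synuclein replicate 3.

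Within 500 kb of these receptor genes 22 genes were tested at 7 months, 20 at 10 months and 23 in the difference between the ages, the 3 receptor genes included. At 7 months Ifnar2 was the gene called, where 4.93% of all tested genes were called. At 10 months Il10rb, Donson and Itsn1 were called, all lower, where 7.67% of all tested genes were called (3.79% lower). Donson takes part in DNA replication and had a log2 fold change of -0.40 (adjusted p = 0.015). Itsn1 encodes an endocytic scaffold protein and had -0.52 (adjusted p = 0.0092). In the difference between the ages, Itsn1 (-0.54, limma adjusted p = 0.046) was called with Il10rb, Ifnar1 and Ifnar2, all lower. Over all tested genes 6.36% were called in it (2.62% lower). The call of Itsn1 in this comparison was lost in 15 of 20 fits without a mouse (adjusted p up to 0.105), without a filter (0.062) and with edgeR (0.051).

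**Figure D3:**
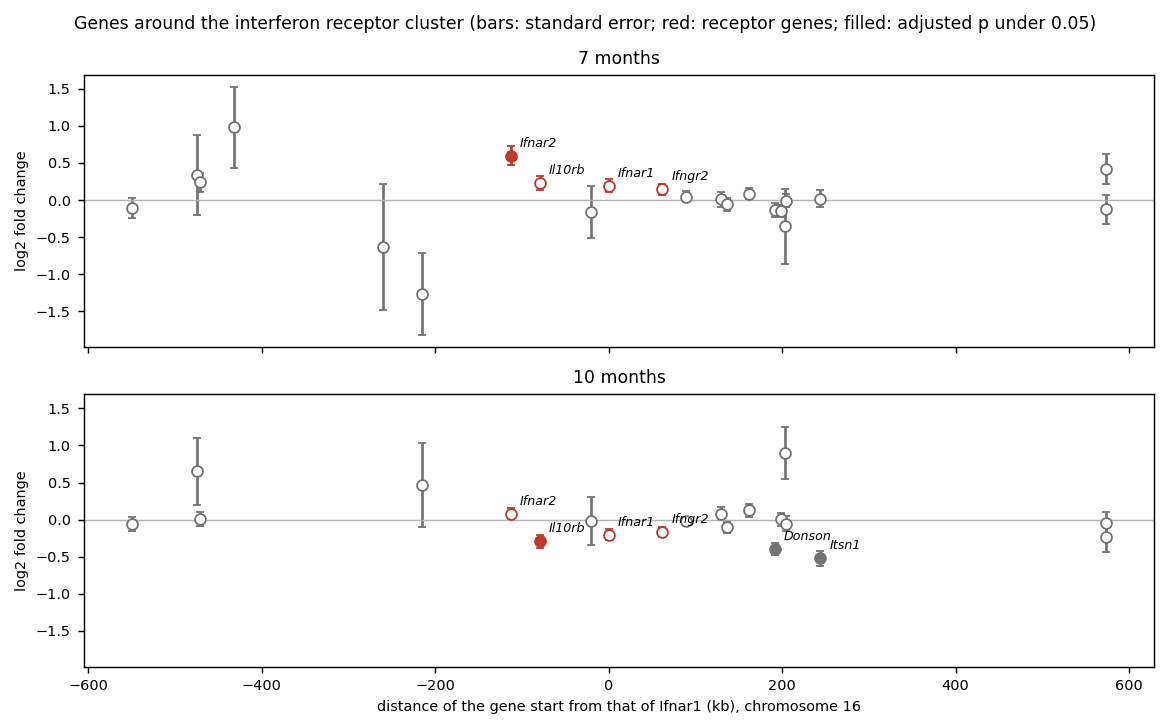
Log2 fold change of mThy1-α-synuclein against wild-type mice (vertical axes) for tested genes around the receptor cluster on chromosome 16, by distance of the gene start from that of Ifnar1 in kb, at 7 months (top) and 10 months (bottom). Bars are standard errors, red marks receptor genes and filled points have an adjusted p under 0.05. At 7 months Ifnar2 (0.60) is filled, and at 10 months Il10rb (-0.295), Donson (-0.40) and Itsn1 (-0.52) are.

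The kinases were the genes with the smallest differences. Jak1, which serves both interferon receptors, lies on chromosome 4 from 101152367 to 101265282 on the minus strand. At 7 months its wild-type values were 24112, 25370.2, 23210.5 and 25807 normalized counts, and mThy1-α-synuclein mice ranged from 22112 over a median of 24542 to 26534. At 10 months mThy1-α-synuclein mice ranged from 20422 to 23559 and wild-type mice from 19348 to 25364. The wild-type values lay inside the mThy1-α-synuclein range at 7 months and around it at 10 months. The fitted log2 fold change was -0.018 (95% confidence interval -0.16 to 0.13) at 7 months and 0.0078 (-0.15 to 0.17) at 10 months. Jak1 overlaps Raver2, which lies on the opposite strand, and whether strand was used in counting is not stated.

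Jak2, the kinase on the IFNGR2 chain, lies on chromosome 19 from 29251828 to 29313080 on the plus strand. It averaged 5254 ± 502 normalized counts in transgenic mice against 5160 ± 681 in wild-type mice at 7 months (SD, n = 6 and 4), and 4767 ± 387 against 4624 ± 225 at 10 months (SD, n = 5 and 5). The ranges overlapped at both ages. The log2 fold changes were 0.031 (95% confidence interval -0.17 to 0.23) and 0.041 (-0.11 to 0.19).

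Tyk2, the kinase on the IFNAR1 chain, lies on chromosome 9 from 21104068 to 21131243 on the minus strand. It averaged 2515 ± 372 normalized counts in transgenic mice against 2406 ± 139 in wild-type mice at 7 months, and 2271 ± 103 against 2335 ± 192 at 10 months. The highest value at 7 months was that of mThy1-α-synuclein replicate 1, 3087. The log2 fold changes were 0.053 (95% confidence interval -0.16 to 0.27) and -0.037 (-0.19 to 0.11). For the 3 kinases the intervals at either age ended at 0.27 or below on either side of 0, and those of the difference between the ages lay between -0.35 and 0.26. The lower ends of the intervals of Ifngr1 and Ifnar2 at 7 months were 0.26 and 0.32.

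Of the inhibitors, Socs1 and Cish had few reads, not far above the 10 normalized counts that the filter asked for. Socs1, whose product blocks JAK1, JAK2 and TYK2 directly, lies on chromosome 16 from 10782240 to 10785536 on the minus strand. In wild-type mice at 7 months it had 35.1, 18.7, 23.6 and 29.8 normalized counts, and the mThy1-α-synuclein mice ranged from 23.8 over a median of 42.2 to 60.5. The groups overlapped, although 4 of 6 mThy1-α-synuclein mice lay above every wild-type mouse. As a log2 fold change this was 0.64 (standard error 0.36, 95% confidence interval -0.13 to 1.40, limma adjusted p = 0.32). At 10 months Socs1 had 40.2 ± 15.8 against 37.8 ± 17.9 (SD, n = 5 and 5; log2 fold change 0.15, adjusted p = 0.86). The 7-month interval holds both 0 and the log2 fold change of Ifnar2, so a difference of that size was not detectable with these mice.

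Cish encodes an inhibitor of STAT5 signalling and lies on chromosome 9 from 107296026 to 107302784 on the plus strand. It ranged from 15.4 to 46.8 normalized counts in wild-type and from 16.3 to 39.5 in mThy1-α-synuclein mice at 7 months. At 10 months it ranged from 19.1 to 32.5 in wild-type and from 9.57 to 59.2 in mThy1-α-synuclein mice. The log2 fold changes were -0.083 (95% confidence interval -0.95 to 0.78) and 0.17 (-0.77 to 1.11).

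Socs3, which binds the IL-6 receptor subunit gp130 and JAK kinases and lies on chromosome 11 from 117966079 to 117970047 on the minus strand, was the most variable of the better expressed genes. At 7 months it had 1452, 2482, 2253 and 1872 normalized counts in wild-type mice, and mThy1-α-synuclein mice ranged from 1510.0 over a median of 1879 to 2196. The ranges overlapped (log2 fold change -0.080, limma adjusted p = 0.79). At 10 months mThy1-α-synuclein mice had 2026, 1977, 1938, 2237 and 1928 normalized counts, and wild-type mice 6908, 3792, 3069, 1797 and 2432. The mThy1-α-synuclein mice lay close together and the wild-type mice were spread widely, with replicate 1 highest and replicate 4 below every mThy1-α-synuclein mouse. On the log2 scale the fold change was -0.68 (standard error 0.31, 95% confidence interval -1.38 to 0.021, limma adjusted p = 0.23), and -0.40 without wild-type replicate 1.

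At 10 months the summed markers of neutrophils, monocytes, lymphocytes and border macrophages had lower ranges in transgenic mice, which overlapped those of wild-type mice for neutrophils and monocytes. The 5 neutrophil markers in the table (Ly6g has no row) summed to 48455 to 131334 normalized counts in transgenic mice and 108855 to 265962 in wild-type mice, with 1 called lower. The 4 monocyte markers summed to 9307 to 19003 against 18510 to 39864 (2 called lower), the 7 lymphocyte markers to 92.5 to 260.1 against 293 to 623 (2 called lower), and the 5 border macrophage markers to 12850 to 16736 against 17283 to 21087 (2 called lower). Of the microglia markers, 4 of 10 were called higher. None of the marker genes in these lists was at 0 throughout a group. The part of these cells in the 10-month values of the receptors, Socs3 and the genes below was not tested.

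Per kilobase of annotated exon, the levels of the 10 genes spanned a wide range. In wild-type mice at 7 months Ifngr1 was highest, with 9858 ± 794 normalized counts per kb (SD, n = 4). Jak1 (3407 ± 164), Ifnar2 (3014 ± 459) and Ifngr2 (2747 ± 71.4) followed, and neighbours among these 3 did not differ beyond their SDs. Jak2 (1026 ± 135), Ifnar1 (880 ± 102) and Socs3 (697 ± 156) came next. Jak2 and Ifnar1, like Ifnar1 and Socs3, lay further apart than the SD of either gene, and their mean ± SD ranges overlapped. Tyk2 had 350 ± 20.3, Socs1 9.21 ± 2.45 and Cish 4.66 ± 2.01 normalized counts per kb. In mThy1-α-synuclein mice of that age Ifngr1 had 13181 ± 922 per kb, and Ifnar2, with 4582 ± 737, lay above Jak1, with 3368 ± 214 (SD, n = 6). The exon length counts all annotated transcripts, not those present in microglia.

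Across the 20 mice, log2 values centred within each group gave Pearson r = 0.68 for Ifngr1 and Ifngr2, 0.71 for Jak1 and Jak2, and 0.52 for Jak1 and Socs3. These were the 3 of 45 pairs at or above 0.5. For Ifnar1 and Ifnar2 r was -0.010. The values of both genes of a pair come from the same library of each mouse, so these correlations are a description. With values centred within each age only, so that genotype also counts, the genes most like Ifngr1 among all tested genes were Adora3 (r = 0.945), Tmem104 (0.927) and Tmem173 (0.921). Tmem173 encodes STING, an adaptor upstream of interferon production, and Adora3 an adenosine receptor. Those most like Ifnar2 were Wls (0.881), Bach1 (0.876) and Vcam1 (0.849), and that most like Ifngr2 was its neighbour Il10rb (0.898). Pik3r5 (0.879) was most like Ifnar1. For the kinases these were Stk4 for Jak1 (0.876), Casp8ap2 for Jak2 (0.884) and Parp10 for Tyk2 (0.813), and for the inhibitors Arid5a for Socs3 (0.878), Tnf for Cish (0.702) and 4930515G01Rik for Socs1 (0.715). These genes were picked for the highest r among 14457 tested genes over 20 mice. Such r values are a description without a test, and Socs1 and Cish had few reads.

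The ligands of these receptors were barely seen in microglial RNA. Of 11 interferon genes, 6 were at 0 in all 20 mice. Among these 6, Ifnl2 and Ifnl3 are interferon lambda genes, whose receptor is another one. The highest value of any interferon was 20.7 normalized counts, for Ifnz in 1 mouse. Ifng, the ligand of IFNGR1 and IFNGR2, ranged from 0 to 20.2 with a median of 3.65. Ifnb1 ranged from 0 to 15.96 with a median of 4.61. No interferon gene reached the filter in the comparison of either age. Of the other 16 cytokines that signal through JAKs, 8 could be tested at 7 months and 7 at 10 months. Osm, encoding oncostatin M, which neutrophils also make, was called at 10 months, at 1280 ± 359 normalized counts in transgenic mice against 2571 ± 826 in wild-type mice (SD, n = 5 and 5; log2 fold change -0.99, limma adjusted p = 0.046). That call was lost in 8 of the 10 fits without a mouse, all but those without mThy1-α-synuclein replicate 5 or wild-type replicate 4.

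Of 52 further genes of the pathway (STATs, Irf9, Jak3, other inhibitors and phosphatases, and other cytokine receptor chains), 51 were tested at 7 months and 1 was called. This was Il6ra, the IL-6 receptor chain, which averaged 21020 ± 2586 normalized counts in transgenic mice against 16357 ± 1648 in wild-type mice (SD, n = 6 and 4; log2 fold change 0.36, limma adjusted p = 0.043). The 1 called of 51 stands beside 4.93% of all tested genes, and the median of the list was 0.13. The call of Il6ra was lost without mThy1-α-synuclein replicate 1, 2, 3 or 5 or wild-type replicate 1, 2 or 3, with an adjusted p of up to 0.16 without wild-type replicate 1.

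At 10 months 5 of 50 tested pathway genes were called, 1 higher and 4 lower. Over all tested genes 7.67% were called (3.88% higher and 3.79% lower). The median of the list was -0.11. Il7r, the IL-7 receptor chain, was higher in transgenic mice, with a log2 fold change of 0.78 (limma adjusted p = 0.0094). It had 1866 ± 358 normalized counts in transgenic mice against 1089 ± 217 in wild-type mice. The groups did not overlap, as was the case for 7.27% of all tested genes. Irf9, a DNA-binding factor of the type I pathway, was lower in transgenic mice by 0.37 on the log2 scale (adjusted p = 0.033). Stat4 was lower by 1.13 (adjusted p = 0.023), Csf3r, the receptor of the neutrophil growth factor G-CSF, by 0.33 (adjusted p = 0.034), and Il10rb as given above. Stat2, Stat3, Stat5a, Stat5b and Stat6 were not called at either age. The calls of Irf9 and Csf3r were each lost in 7 of the 10 fits without a mouse and that of Stat4 in 6, with an adjusted p of up to 0.079 for Irf9, 0.076 for Csf3r and 0.060 for Stat4. Irf9 kept its call without mThy1-α-synuclein replicate 1 or 2 or wild-type replicate 4, Csf3r without mThy1-α-synuclein replicate 3 or wild-type replicate 4 or 5, and Stat4 without mThy1-α-synuclein replicate 4 or 5 or wild-type replicate 3 or 4.

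In the difference between the ages, 8 of 51 pathway genes were called, where 6.36% of all tested genes were (2.62% lower and 3.74% higher). Of the 8, 7 were lower and 1 higher, and the median of the list was -0.24. The lower ones were Irf9 (-0.48), Stat6 (-0.32), Usp18 (-1.44), Il10rb (-0.53), Il6ra (-0.52), Csf3r (-0.48) and Il13ra1 (-0.36), with limma adjusted p between 0.016 and 0.049. USP18 is made in response to interferon and blocks IFNAR2. The higher one was Ptpn11 (0.38, adjusted p = 0.035), which encodes the phosphatase SHP2. Its log2 fold change was -0.27 at 7 months and 0.10 at 10 months, neither of which passed. Among the 20 fits without a mouse, the call in this comparison was lost in 14 for Il13ra1, 11 for Stat6 and 8 for Ptpn11, with adjusted p of up to 0.0995, 0.094 and 0.084. Usp18 lost it without wild-type replicate 2 at 7 months (0.063) or wild-type replicate 1 at 10 months (0.057), and Il6ra without wild-type replicate 1 at 7 months (0.056). The replicate block ended the calls of Stat6 (0.11), Il6ra (0.058), Usp18 (0.053) and Ptpn11 (0.0501) in this comparison.

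Of 51 target genes of interferons and of STAT3 and STAT5, 4 were called at 7 months, where 4.93% of all tested genes were. The higher ones were Cxcl10, a chemokine, with a log2 fold change of 1.26 (limma adjusted p = 0.0097), Ifit3, an antiviral effector, with 0.50 (adjusted p = 0.014), and the growth regulator Myc, with 0.89 (adjusted p = 0.0018). In these 3 genes the genotypes did not overlap. Of the 51 target genes, 6 did not overlap with transgenic mice higher and 2 with transgenic mice lower. Over all tested genes 7.53% did not overlap (3.55% higher). With all 20 mice in 1 fit Ifit3 was not called (adjusted p = 0.146). The cyclin gene Ccnd2 was lower, with -0.42 (adjusted p = 0.015), and its groups did not overlap either. It lost the call without wild-type replicate 1 (adjusted p = 0.061) or 4 (0.051) and with the replicate block (0.054).

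At 10 months 11 of the 51 target genes were called, all of them lower, where 7.67% of all tested genes were called (3.79% lower). Of the 11, 6 were STAT3 and STAT5 targets, 4 type I interferon targets and 1 an interferon-gamma target. The median of the 51 was -0.36 against 0.17 at 7 months. Bst2, a tether of viral particles, had -0.75 (limma adjusted p = 0.0042), Il1rn, the IL-1 receptor antagonist, -1.12 (adjusted p = 0.0079), and Bcl6, a transcriptional repressor, -0.56 (adjusted p = 0.013). In the difference between the ages 8 of the 51 were called, again all lower, where 6.36% of all tested genes were called (2.62% lower). They were Ifit1, Ifit3, Isg15, Ddx58, Cxcl10, Irgm1, Bcl6 and Myc, from -0.47 to -1.38. Of the 18 type I interferon targets, 15 had a positive value at 7 months and 15 a negative value at 10 months. These counts were 12 and 17 for the 18 interferon-gamma targets, and 8 and 14 for the 15 STAT3 and STAT5 targets. The calls of Isg15, Irf1, Oasl1, Ddx58 and Mcl1 at 10 months were each lost in 7 to 9 of the 10 fits without a mouse, with adjusted p of up to 0.11. In the difference between the ages those of Ifit3 and Irgm1 were lost in 15 of 20 fits and that of Myc in 6. With the replicate block the calls of Ifit3 (0.073), Irgm1 (0.057), Isg15 (0.073) and Myc (0.142) in that comparison were lost, as was that of Isg15 at 10 months (0.063). Without a filter Isg15 (0.057), Irf1 (0.058), Oasl1 (0.054) and Ddx58 (0.065) were not called at 10 months, nor Irgm1 in the difference between the ages (0.062). With edgeR Isg15 (0.051) and Ddx58 (0.053) at 10 months and Ifit3 (0.054) and Irgm1 (0.053) in the difference between the ages were not called.

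**Figure D4:**
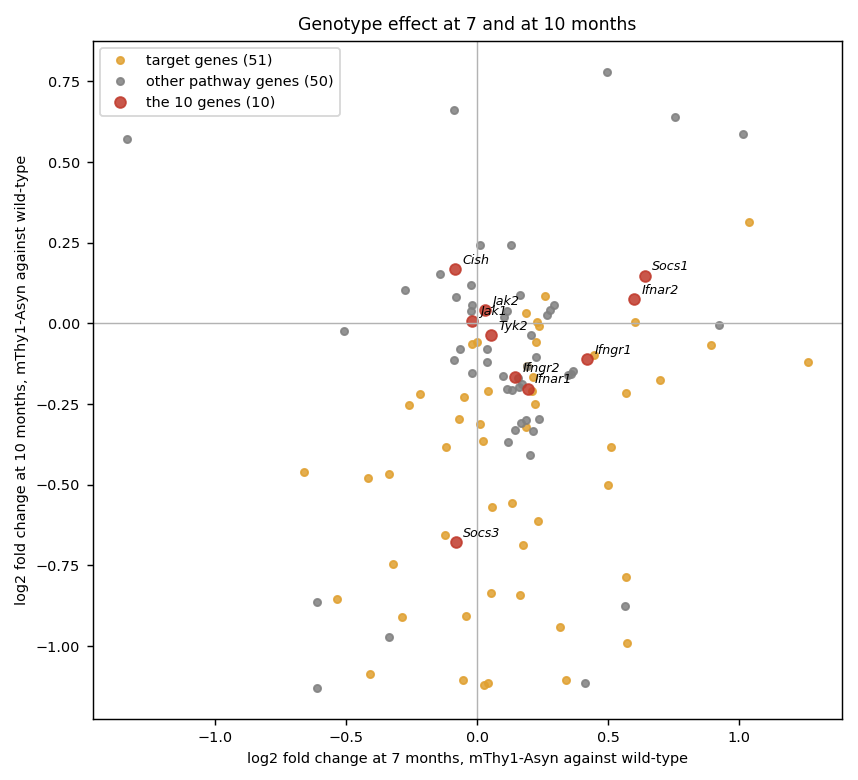
Log2 fold change of mThy1-α-synuclein against wild-type mice at 7 months (horizontal axis) and at 10 months (vertical axis) for the 10 genes (red), 50 other pathway genes (grey) and 51 target genes (orange). Each point is a gene. Ifngr1 (0.42 and -0.11) and Ifnar2 (0.60 and 0.075) lie to the right, the kinases lie at the centre and Socs3 (-0.080 and -0.68) lies below it.

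The neighbourhoods of the other genes were examined as well, within 500 kb. Of all tested genes, 4.93% were called at 7 months, 7.67% at 10 months and 6.36% in the difference between the ages. Near Socs1, 3 of 14 tested genes were called at 7 months and 4 of 14 at 10 months (the 3 of smallest p are named). The neighbours Litaf (-0.47 and -0.44) and Snn (-0.37 and 0.52) of Socs1 were called at 7 and 10 months, Gspt1 (-0.76) at 7 months and Clec16a (-0.49) at 10 months, with limma adjusted p of at most 0.014, whereas Socs1 was not. Litaf and Snn overlap in the annotation, so their separate levels are uncertain. Near Cish, Mapkapk3 (-0.38) and Manf (-0.53) were called at 10 months, 2 of 20 genes tested. Near Tyk2, AB124611 (-0.80) and Cdkn2d (-0.82) were called at 10 months, 2 of 31 tested, and Pgs1 (-0.29) near Socs3, 1 of 17. Pex7 (0.34), 1 of 3 tested neighbours of Ifngr1, was called higher at 10 months, where Ifngr1 was not. In the difference between the ages Pex7 (0.39), Ermp1 near Jak2 (-0.41), Snn (0.89), Manf (-0.70) and Rbm5 near Cish (-0.51) were called. The neighbours tested in it were 3 for Ifngr1, 14 for Jak2, 15 for Socs1 and 22 for Cish. Several of these calls were lost when a mouse was left out. At 7 months that of Snn was lost in 2 of 10 fits (without wild-type replicate 1 or 3, adjusted p up to 0.054). At 10 months that of Cdkn2d was lost in 9 of 10 (up to 0.097), that of Pgs1 in 8 (up to 0.091) and that of AB124611 in 3 (without mThy1-α-synuclein replicate 1 or wild-type replicate 2 or 5, up to 0.054). The call of Pex7 in the difference between the ages was lost in 16 of 20 fits (up to 0.096) and that of Rbm5 in 9 (up to 0.094). Pgs1 also lost its call without a filter (0.055) and with the replicate block (0.082), and Pex7 without a filter (0.051), with the block (0.145) and with partnered mice only (0.093). The block ended the calls of Manf at 10 months (0.052) and in the difference between the ages (0.060).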

How the data were processed

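RNA of bead-selected microglia was sequenced from 20 male mice, in groups of 6 (mThy1-α-synuclein) and 4 (wild-type) aged 7 months and of 5 and 5 aged 10 months. The authors trimmed reads with Trim Galore 0.6.7, mapped them to mm10 with HISAT2 2.2.1, ran featureCounts on the alignments and scaled the gene counts of a mouse with its DESeq2 (1.44.0) size factor, per the labels and the methods. Annotation release, strand and multi-mapping settings of the counts are not given in the sources used here. The deposited signal values are these depth-normalized counts. Dividing by the smallest step of a mouse gave back whole reads for 100% of the values examined (tolerance 0.01), and the steps equalled size factors recomputed within each age (10 mice). The step of 10-month mThy1-α-synuclein replicate 5 was too near 1 for this test.

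The members and lists were chosen with earlier results of these data known. Genes reaching a value of 10 in 4 or more mice (7 months), 5 or more (10 months) or 4 or more of all 20 (difference between the ages) were tested with limma 3.58.1 (R 4.3.3) on log2(value + 1), with trend and robust estimation. p-values were adjusted by Benjamini-Hochberg over all genes tested, with a threshold of 0.05. Mice are the replicates, so SDs and standard errors cover the spread between mice. Alternatives were edgeR 4.0.16 and DESeq2 1.42.0 on recovered reads, pseudocounts of 0.5 and 5, other filters, TMM scaling, 1 fit of all mice, a replicate block and leaving out each mouse. The fits were tested on simulated data. Ratios of chains were compared by exact permutation (scipy 1.17.1) over 210, 252 and 52920 assignments. Positions are from GENCODE M21 on mm10, which held 95.3% of the tested genes by symbol. Promoters are from RefSeq.

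Named genes are the 10 members, up to 8 called genes of smallest p per pathway, ligand and target list and comparison, the 3 genes most correlated with a member, called neighbours within 500 kb (up to 3 per member and comparison), and Thy1 as the check of the transgene. The methylation data of the study were not analysed here.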

Additional observations from a re-analysis of the deposited data

Results flagged for a closer look

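Of 144 groups examined (36 genes in 4 groups), 5 held a mouse far from the others by Dixon's test, where chance gives about 1 in 20. None concerned the 10 receptor, JAK and SOCS genes. Wild-type replicate 4 at 7 months had 470.4 normalized counts of Il1rn, against 901 to 979.5 in the other 3 mice, and 1052 of Osm, against 1863 to 1973. That mouse also had the lowest neutrophil marker sum of its group, 54484 against 175629 to 194711. Its monocyte marker sum was 9447 against 20671 to 28352. The part of these cells in its Il1rn and Osm values was not tested. mThy1-α-synuclein replicate 1 had 4503 normalized counts of Irf1 at 7 months, against 2590.2 to 3224 in the others. Its namesake at 10 months, a different mouse, had 3099.7 of Irf1, against 2469.9 to 2643. mThy1-α-synuclein replicate 5 at 10 months had 181.6 normalized counts of Stat4, against 75.0 to 97.0.

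By the interaction term of limma, the genotype effect differed between the ages for 6.36% of the 14457 genes tested. It differed for 3 of the 10 genes: Ifngr1 by -0.53, Ifnar1 by -0.40 and Ifnar2 by -0.52 (log2, 10 minus 7 months). Among pathway genes it differed for Csf3r by -0.48, Il10rb by -0.53, Il13ra1 by -0.36, Il6ra by -0.52, Irf9 by -0.48, Stat6 by -0.32, Usp18 by -1.44 and Ptpn11 by 0.38. Among target genes it differed for Bcl6 by -0.69, Cxcl10 by -1.38, Ddx58 by -0.51, Ifit1 by -1.35, Ifit3 by -1.0, Irgm1 by -0.47, Isg15 by -1.26 and Myc by -0.96. The adjusted p ran from 0.0074 for Bcl6 to 0.049 for Il13ra1. Of the 20 fits without a mouse, 11 lost the call of Ifnar1, 15 that of Ifnar2 and 0 that of Ifngr1.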

How the results depend on the processing

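DESeq2 on the recovered reads raised the genes called to 1158 at 7 months (684 with limma) and 1694 at 10 months (1045). Replicate numbers did not pair the mice: same-numbered mice correlated between -0.134 and 0.10, and none correlated best with its own number. With the replicate block, 483 genes differed between the ages instead of 920, 5 pathway genes instead of 8, and 0 pathway genes were called at 7 months instead of 1. Fitting the block leaves out mice without a partner. With those mice left out and no block, 1 of the 10 genes was called at 7 months instead of 2, the one lost being Ifnar2 (adjusted p = 0.054). Of the receptor calls, the block ended that of Ifnar1 in the difference between the ages (adjusted p = 0.065). Other pathway genes called at 7 months numbered 3 with all 20 mice in 1 fit, 2 with DESeq2 and 0 without a filter. Ifnar2 lost its call in the difference between the ages without a filter (0.056) and with partnered mice only (0.073). Ifngr1 kept both calls in each setting. A filter at 50 normalized counts left Socs1 and Cish untested in the comparisons of both ages. At 7 months the value of Cish turned to 0.041 with the block and with partnered mice only.

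Leaving out a mouse gave 280 to 860 genes called at 7 months, 489 to 1232 at 10 months and 618 to 1097 in the difference. Of the 10 genes, 1 to 2, 0 to 0 and 1 to 4 were called, and of the pathway genes 0 to 2, 1 to 5 and 4 to 10. Uncalled values changed sign at 7 months for Jak1 (-0.046 to 0.0091), Jak2 (-0.067 to 0.086), Tyk2 (-0.0088 to 0.12), Socs3 (-0.23 to 0.030) and Cish (-0.36 to 0.16), at 10 months for Jak1 (-0.039 to 0.059), Tyk2 (-0.062 to 0.0093), Socs1 (-0.14 to 0.36) and Cish (-0.10 to 0.52), and in the difference for Jak1 (-0.021 to 0.077), Jak2 (-0.044 to 0.11) and Cish (-0.021 to 0.61). Ratios of chains kept their sign. Depth limits Socs1 and Cish, whose values lay between 9.57 and 63.2 normalized counts.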
